A study of Mus musculus with 32 samples.

Results

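Transcripts of 6 acute phase genes, Saa1, Saa2, Saa3, Lcn2, Hp and Ptx3, were followed across the cell types of mouse epididymal fat. They were found by symbol among the 31053 genes of the count matrix, and all 6 were present. The genes were chosen by their measured levels: in earlier results of these data, Saa3 was far higher in fibroblasts of one normal diet library than of the other. The levels of the members are therefore given as a description, with no test.

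The acute phase response is the change in secreted proteins that follows infection or injury, driven mainly by IL-6 and IL-1 type cytokines acting through STAT3, NF-kB and C/EBP factors. Most of its proteins come from the liver, but fat tissue is a known source of several of them outside the liver. In mice, Saa3 is the serum amyloid A gene expressed mainly outside the liver, whereas Saa1 and Saa2 encode the circulating forms. Lcn2 encodes lipocalin 2, which binds bacterial siderophores and is stored in neutrophil granules. Hp encodes haptoglobin, which binds free haemoglobin and is made by adipocytes as well as by the liver. Ptx3 encodes a long pentraxin, a soluble pattern recognition protein made locally by stromal and myeloid cells.

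The study asked how removal of resident macrophages affects the immune and non-immune cells of lean and obese fat. C57BL/6 mice labelled CD169-DTR, which carry the diphtheria toxin receptor under control of the CD169 gene Siglec1, and mice labelled WT were fed a high fat diet (HFD) or a normal diet (ND) for 16 weeks. All 4 groups, WT included, received diphtheria toxin for 7 days. The stromal vascular fraction, which is fat tissue without its floating mature adipocytes, was sorted into CD45-positive and CD45-negative cells. Most F4/80-high macrophages and Ly6C-high monocytes were gated away, and the sorted pools were mixed 1:1 before 10x Genomics 3′ v3 sequencing. The age and sex of the mice and the number pooled per library are not given in the sources used here. Each group had 1 library, so no difference has a replicate check and no test was possible. Every interval below is a 95% interval that covers counting error only, and not the variation between mice.

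The libraries held 64766718 unique molecular identifiers (UMIs, the count of captured transcripts) in HFD labelled CD169-DTR, 49142626 in HFD labelled WT, 33390225 in ND labelled CD169-DTR and 37655128 in ND labelled WT. After filtering, 19328 of 22703 barcodes were kept, 5627, 5120, 3599 and 4982 in the same order of libraries. Of all barcodes, 658 occurred in more than 1 library, and ratios were also computed without them. Siglec1 went against the labels: it had 190 UMIs in HFD labelled CD169-DTR and 51 in HFD labelled WT, and 113 in ND labelled CD169-DTR and 5 in ND labelled WT. In macrophage-like cells the Siglec1 level was 12.4 CPM (UMIs of the gene per 1000000 UMIs of the class) in HFD labelled CD169-DTR, 5.54 CPM in HFD labelled WT, 18.6 CPM in ND labelled CD169-DTR and 0.938 CPM in ND labelled WT. Macrophages were partly removed by the sort, so these levels do not show whether the cells were lost in the tissue, and each library is named below by its label.

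Cells were gated on marker genes, and a gated class is called "like" its cell type. The fibroblast-like class, which takes in adipocyte progenitors, held 2843 cells in HFD labelled CD169-DTR, 1777 in HFD labelled WT, 1116 in ND labelled CD169-DTR and 1111 in ND labelled WT. All 7 of its markers (Pdgfra, Col1a1, Col1a2, Col3a1, Dcn, Dpt and Lum) were detected, and Pdgfra and Lum were among its 10 leading genes. The gate used these markers, so this is no separate check of the class name. The rest of the 10, not used in the gate, were Mfap2, Inmt, Sfrp1, Dpep1, Cilp, Pcolce2, Mfap4 and Svep1. Different clusters held most of these cells in each library. Clusters 5, 10 and 11 held 25.2%, 25.0% and 22.4% in HFD labelled CD169-DTR, and clusters 3 and 8 held 37.4% and 35.9% in HFD labelled WT. Cluster 6 held 56.2% in ND labelled CD169-DTR, and clusters 14 and 3 held 40.8% and 23.5% in ND labelled WT. Mesothelial-like cells, which line the outer surface of the fat pad, numbered 51, 29, 73 and 132 in the same order of libraries.

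Saa3 (ENSMUSG00000040026) lies at chr7:46711998-46715700 on the minus strand of GRCm38. Saa1 (ENSMUSG00000074115, chr7:46740497-46742980, minus strand) and Saa2 (ENSMUSG00000057465, chr7:46751790-46754313, plus strand) lie beside it. Lcn2 (ENSMUSG00000026822) lies at chr2:32384633-32388252 on the minus strand, Hp (ENSMUSG00000031722) at chr8:109575128-109579172 on the minus strand and Ptx3 (ENSMUSG00000027832) at chr3:66219910-66225805 on the plus strand. Over all kept cells the members had 17622 UMIs for Saa3, 5493 for Lcn2, 60133 for Hp, 84094 for Ptx3, 267 for Saa1 and 127 for Saa2.

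The 250 bases before the RefSeq start of the members that stood apart most are shown 5′ to 3′ on the gene's own strand (GRCm38.p6). Saa3 and Lcn2 are shown because their fibroblast levels were over 2-fold higher in the library labelled CD169-DTR on both diets, and Saa1 and Saa2 because their near-identical sequences bear on how their reads were counted. Capitals mark matches on either strand to the C/EBP motif TTNCNNAA or the NF-kB motif GGGNNNNNCC. In order, the windows are chr7:46715677-46715926 on the minus strand, chr2:32387740-32387989 on the minus strand, chr7:46742981-46743230 on the minus strand and chr7:46751583-46751832 on the plus strand. The RefSeq starts of Saa3, Lcn2 and Saa2 differ from the starts of the gene spans given above. The Lcn2 window therefore lies inside its gene span, and the Saa3 and Saa2 windows partly overlap theirs.
Saa3: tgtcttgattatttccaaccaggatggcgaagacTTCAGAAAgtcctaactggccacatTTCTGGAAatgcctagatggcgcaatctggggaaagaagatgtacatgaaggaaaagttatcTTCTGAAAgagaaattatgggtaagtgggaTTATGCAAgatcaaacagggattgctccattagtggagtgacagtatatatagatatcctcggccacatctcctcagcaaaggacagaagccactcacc
Lcn2: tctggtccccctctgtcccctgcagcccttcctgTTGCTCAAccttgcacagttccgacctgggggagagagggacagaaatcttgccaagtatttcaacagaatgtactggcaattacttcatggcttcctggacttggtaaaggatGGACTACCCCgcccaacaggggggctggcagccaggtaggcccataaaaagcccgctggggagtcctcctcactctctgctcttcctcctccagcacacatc
Saa1: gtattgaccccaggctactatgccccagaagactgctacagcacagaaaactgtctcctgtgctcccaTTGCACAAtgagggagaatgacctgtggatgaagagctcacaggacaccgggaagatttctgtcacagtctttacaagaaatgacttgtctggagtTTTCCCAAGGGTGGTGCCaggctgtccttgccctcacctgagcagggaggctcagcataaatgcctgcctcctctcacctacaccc
Saa2: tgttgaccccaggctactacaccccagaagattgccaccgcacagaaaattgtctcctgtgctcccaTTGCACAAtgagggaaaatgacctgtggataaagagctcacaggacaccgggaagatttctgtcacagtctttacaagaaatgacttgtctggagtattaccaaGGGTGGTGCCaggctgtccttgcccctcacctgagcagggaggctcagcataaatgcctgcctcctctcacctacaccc

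The Saa3 window held 4 C/EBP matches, 216 to 209, 191 to 184, 129 to 122 and 99 to 92 bases before the start. The Saa1 window held 2 C/EBP matches, the second of them 86 to 79 bases before the start and directly followed by an NF-kB match at 78 to 69 bases. The Saa2, Lcn2 and Ptx3 windows held 1 C/EBP match each, and the Saa2 and Lcn2 windows also held 1 NF-kB match each. The C/EBP letters occur in 36.8% and the NF-kB letters in 45.8% of 32851 promoters of the same length, so a match is common and is given as a description only. Neither the STAT letters TTCNNNGAA (7.02% of promoters) nor the TATA letters TATAAA (12.4%) occurred in the 5 windows. The Saa1 and Saa2 windows were 94.8% identical, and the last 300 bases of their transcripts 92.4% identical. Because 3′ reads come from that end, how counts divide between Saa1 and Saa2 is uncertain. Saa3 shared 51.6% of these transcript bases with Saa1 and 49.8% with Saa2. Over whole transcripts, the longest unbroken shared run was 99 bases for Saa1 and Saa2. It was 58 bases for Saa1 and Saa3 and 41 bases for Saa2 and Saa3. Where in the transcripts these runs lie was not determined.

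Most Saa3 transcripts lay in fibroblast-like cells in every library but ND labelled WT, and in these cells Saa3 was many times more abundant in the libraries labelled CD169-DTR than in those labelled WT. The fibroblast-like level of Saa3 was 196 CPM (191 to 200; 7962 UMIs) in HFD labelled CD169-DTR and 12.1 CPM (10.6 to 13.7; 244 UMIs) in HFD labelled WT. It was 485 CPM (474 to 497; 7081 UMIs) in ND labelled CD169-DTR and 6.81 CPM (5.31 to 8.6; 70 UMIs) in ND labelled WT. Both libraries labelled CD169-DTR thus stood above both labelled WT, with the normal diet one highest of the 4. The log2 ratio of CD169-DTR to WT was 4.01 (3.83 to 4.2) on the high fat diet, 16.2-fold, and 6.15 (5.82 to 6.52) on the normal diet, 71.2-fold. Between diets, the Saa3 level in the mice labelled CD169-DTR was 2.48-fold lower on the high fat diet than on the normal diet, a log2 ratio of -1.31 (-1.36 to -1.26). In the mice labelled WT the log2 ratio of HFD to ND was 0.83 (0.44 to 1.23), and it turned to -1.3 when the 10 cells with most Saa3 UMIs were left out of each library, which held 240 of 244 UMIs in HFD labelled WT and 65 of 70 in ND labelled WT. Fibroblast-like cells held 88.0%, 96.8%, 88.0% and 25.5% of a library's Saa3 UMIs in HFD labelled CD169-DTR, HFD labelled WT, ND labelled CD169-DTR and ND labelled WT. These levels are sums over the class, so fewer cells with Saa3 and less Saa3 RNA per cell are told apart only by the counts per cell given next.

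**Figure D1:**
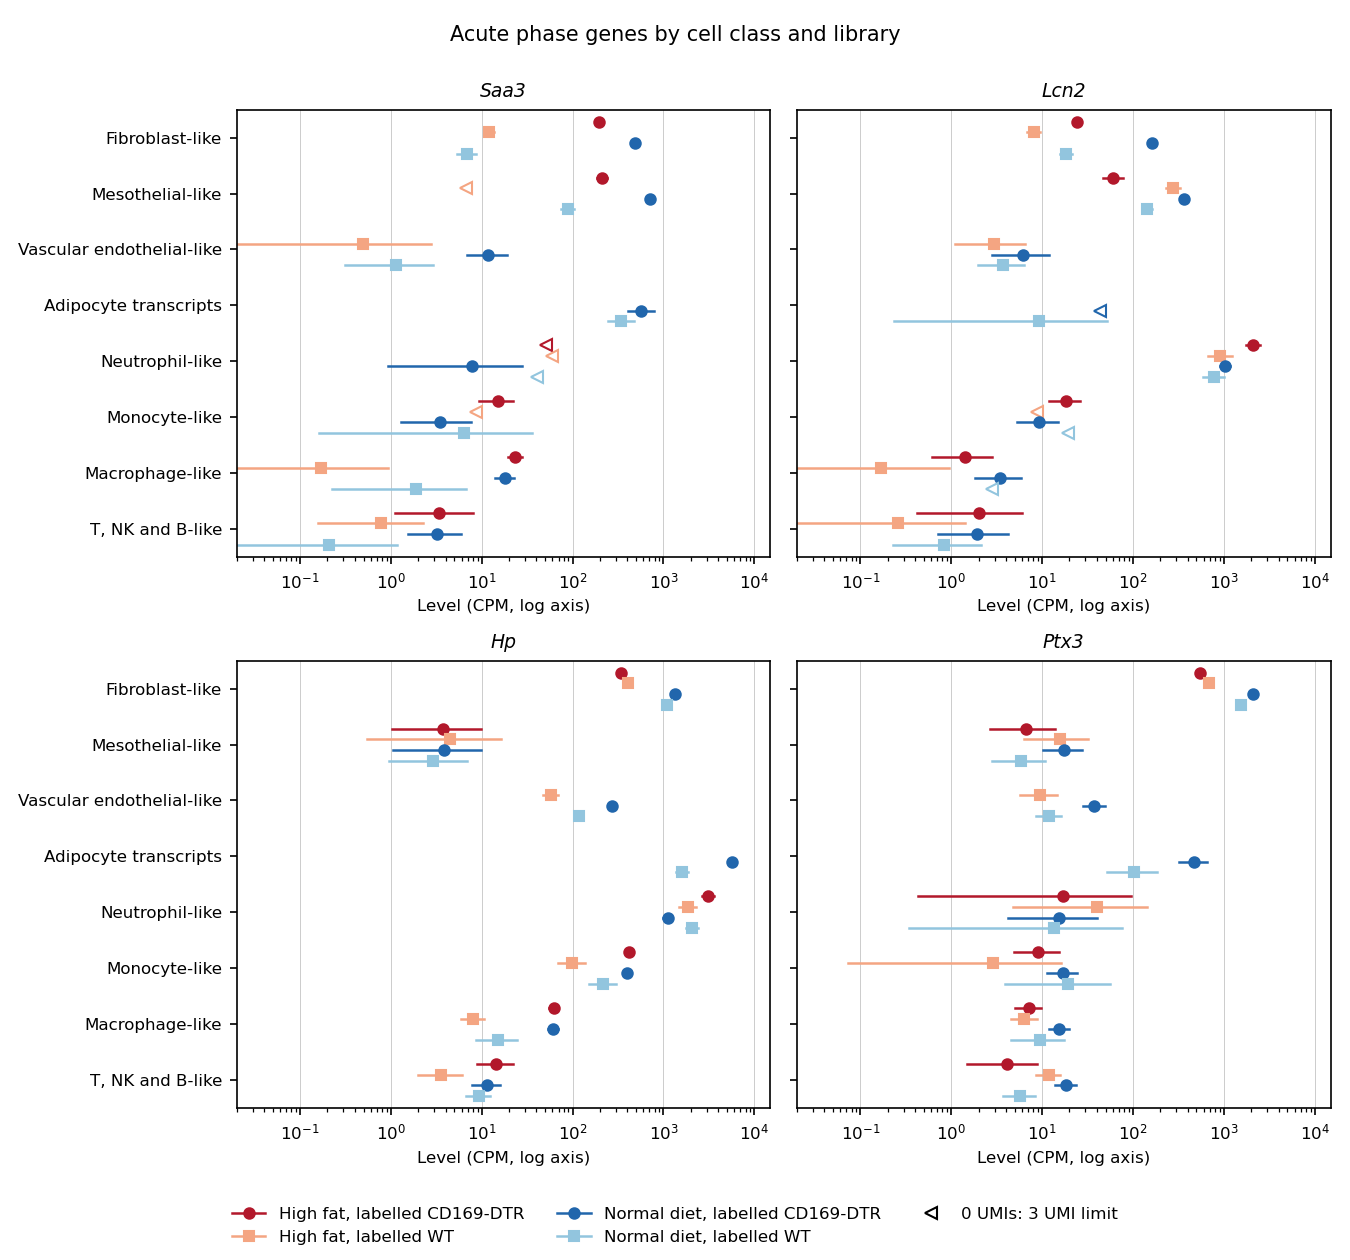
Level of Saa3, Lcn2, Hp and Ptx3 in CPM (log axis) in 8 gated cell classes, with 1 point per library and 95% counting intervals; open triangles mark the 3 UMI limit where no UMI was found, and classes under 20 cells in a library are not drawn. Saa3 reached 704 CPM in mesothelial-like cells and 485 CPM in fibroblast-like cells of ND labelled CD169-DTR, against 88.1 and 6.81 CPM in ND labelled WT. The 10 highest mesothelial-like cells held 82.8% of the Saa3 UMIs of their class in ND labelled CD169-DTR and 82.0% in ND labelled WT.

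The Saa3 signal came from a small minority of fibroblast-like cells. At least 1 Saa3 UMI was found in 9.5% of these cells in HFD labelled CD169-DTR, 0.788% in HFD labelled WT, 16.9% in ND labelled CD169-DTR and 1.35% in ND labelled WT. When each cell was thinned to 2000 UMIs the shares were 5.16%, 0.356%, 10.5% and 0.594% in the same order. In lymphocyte-like cells (T, NK and B), which are not known to make Saa3, the unthinned shares were 1.09%, 0.107%, 1.52% and 0.128%, and the thinned ones 0.755%, 0.124%, 0.649% and 0%. Median depths were 12855, 11169, 12196 and 9597 UMIs in fibroblast-like cells and 2323.5, 3125, 3663 and 4407 UMIs in lymphocyte-like cells. The fibroblast-like shares in the libraries labelled CD169-DTR were several times the lymphocyte level of the same library. In WT the thinned shares rest on few cells, 14 with an Saa3 UMI before thinning in HFD labelled WT and 15 in ND labelled WT.

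Within the cells that had Saa3, a few held very large counts. The highest single cell had 487 Saa3 UMIs in HFD labelled CD169-DTR, 69 in HFD labelled WT, 621 in ND labelled CD169-DTR and 26 in ND labelled WT. The 10 highest fibroblast-like cells held 42.6%, 98.4%, 46.8% and 92.9% of the Saa3 UMIs of the class in the same order. Cells with over 10 Saa3 UMIs numbered 99 in HFD labelled CD169-DTR, 7 in HFD labelled WT, 84 in ND labelled CD169-DTR and 2 in ND labelled WT. Many more cells with high Saa3 were therefore present in the libraries labelled CD169-DTR, while the WT levels rested on single cells. With every cell given the same weight, the log2 ratio of CD169-DTR to WT on the normal diet was 4.48, against 6.15 from summed UMIs.

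**Figure D2:**
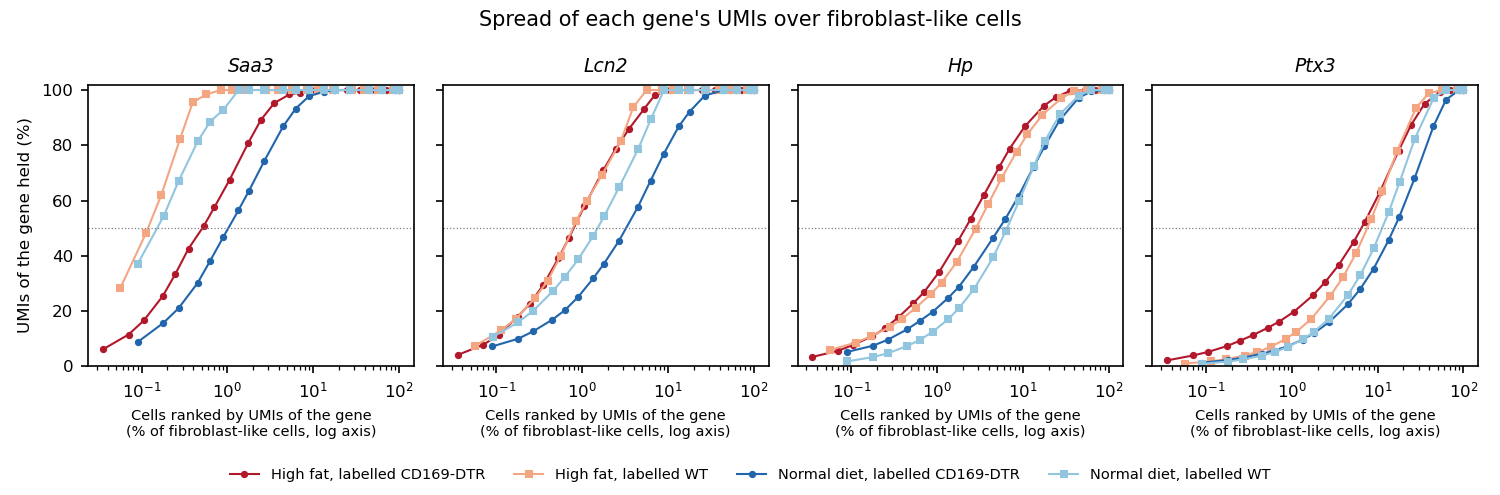
Cumulative percent of a gene's UMIs (vertical axis) held by the fibroblast-like cells ranked from most to fewest UMIs (horizontal axis, percent of cells, log scale), with 1 line per library. Saa3 rises steeply, with 42.6% to 98.4% of its UMIs in the top 10 cells of a library, and Ptx3 slowly, with 6.99% to 11.3%.

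By subset, fibroblast-like cells carrying markers of committed preadipocytes (Col15a1, Fabp4, Pparg, Lpl, Col4a1 and Icam1), the progenitors nearest to fat cells, held 5924 of the 7962 Saa3 UMIs of the class in HFD labelled CD169-DTR, 193 of 244 in HFD labelled WT, 6639 of 7081 in ND labelled CD169-DTR and 24 of 70 in ND labelled WT. In that subset the Saa3 level was 253 CPM in HFD labelled CD169-DTR (1722 cells), 13.2 CPM in HFD labelled WT (1256 cells), 586 CPM in ND labelled CD169-DTR (871 cells) and 3.41 CPM in ND labelled WT (731 cells). In the early progenitor subset (Pi16, Dpp4, Sema3c, Cd55, Anxa3 and Wnt2) it was 87.9 CPM (350 cells), 0 CPM (198 cells), 22.2 CPM (121 cells) and 0 CPM (174 cells) in the same order. The committed subset was thus above the early one in all 4 libraries. Cells gated to no subset had 143 CPM (640 cells), 19.1 CPM (255 cells), 301 CPM (104 cells) and 36.2 CPM (166 cells) in the same order. In both libraries labelled WT this was above the committed subset, but from few cells. In HFD labelled WT only 3 cells held its 51 UMIs. The intervals there overlapped, 14.2 to 25.1 CPM against 11.4 to 15.2 CPM in the committed subset. In ND labelled WT 6 cells gated to no subset held 43 of the 70 UMIs of the class. Within the committed subset alone the log2 ratio of CD169-DTR to WT was 4.26 on the high fat diet and 7.42 on the normal diet, so the difference was as large as over all fibroblast-like cells.

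The plot of levels by cluster shows that high Saa3 was not restricted to the cluster holding most cells of ND labelled CD169-DTR. That cluster, number 6, is led by the interferon-response genes Rsad2, Ifit3b, Mx1 and Ifit1 together with Cd274 and Lcn2. Its Saa3 level was 568 CPM in HFD labelled CD169-DTR (67 cells), 0 CPM in HFD labelled WT (29 cells), 678 CPM in ND labelled CD169-DTR (627 cells) and 18.2 CPM in ND labelled WT (61 cells). Cluster 5 reached 338 CPM in HFD labelled CD169-DTR (716 cells, 104 with a UMI) and 82.6 CPM in HFD labelled WT (57 cells, 2 with a UMI). Cluster 19, led by Egr4 and H2-M2, had 322 CPM in HFD labelled CD169-DTR (296 cells, 39 with a UMI) and 1.23 CPM in ND labelled CD169-DTR (44 cells). The latter is 1 UMI, under the 3 UMI limit of 3.69 CPM. Cluster 11 had 29.3 CPM in HFD labelled CD169-DTR (638 cells, 19 with a UMI) and 729 CPM in ND labelled CD169-DTR (32 cells). Only 4 of these 32 cells had a UMI. In every cluster drawn with cells of both libraries of a diet, the Saa3 level was higher in the library labelled CD169-DTR. Cluster 30, a low-depth cluster that is not drawn, ran the other way, with 19.6 CPM (1 UMI in 28 cells) in HFD labelled CD169-DTR and 675 CPM (49 UMIs in 22 cells) in HFD labelled WT. All 49 of these UMIs lay in 1 cell, so the reversal rests on that cell.

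**Figure D3:**
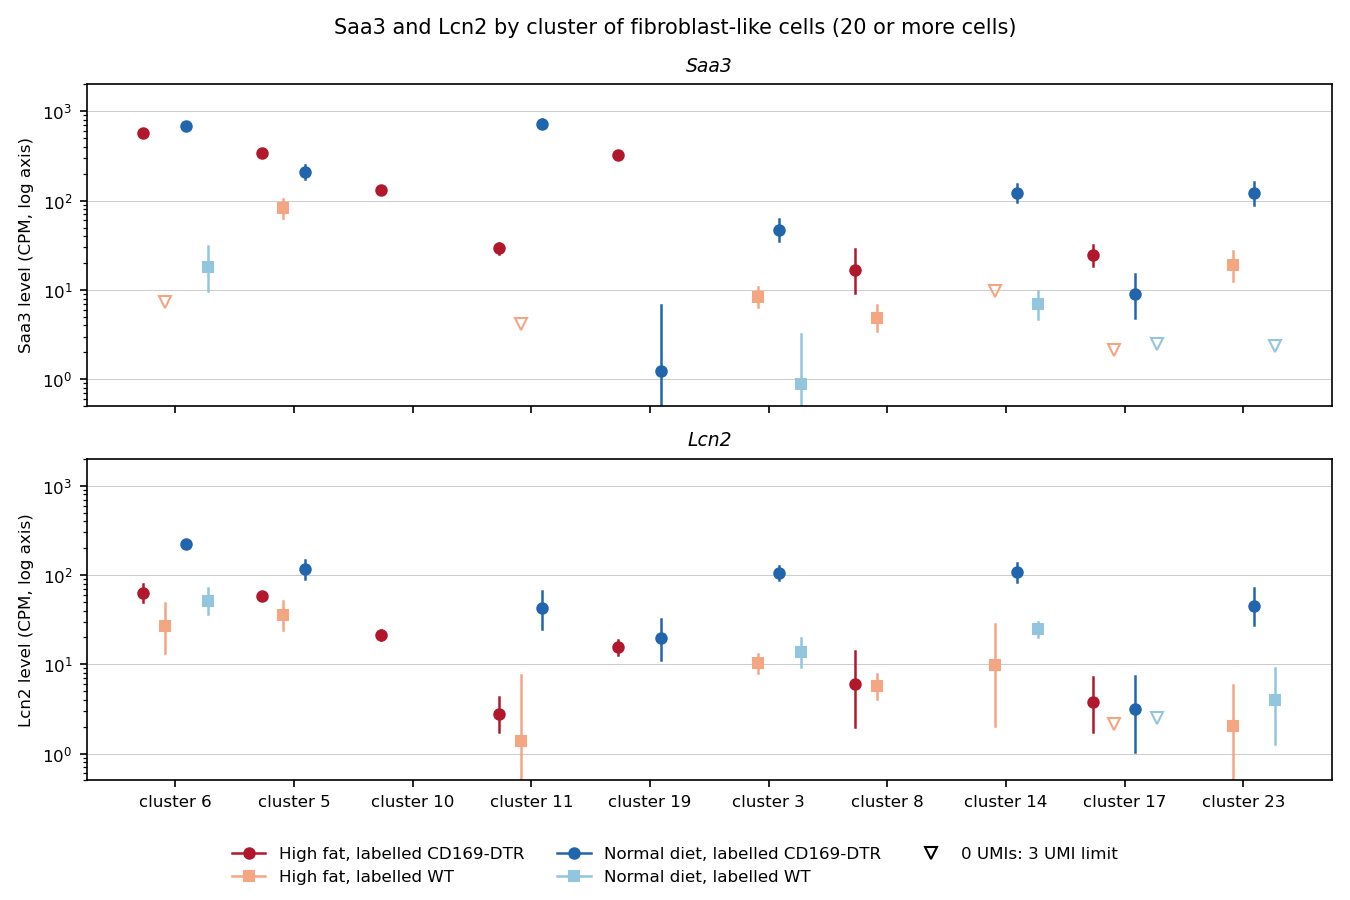
Saa3 and Lcn2 level in CPM (log axis) of the fibroblast-like cells of 10 clusters, 1 point per library with at least 20 cells, with 95% counting intervals (clusters 30 and 36 are not drawn); points for 0 UMIs stand at the 3 UMI limit. In cluster 6 Saa3 stood at 678 CPM in ND labelled CD169-DTR against 18.2 CPM in ND labelled WT, and Lcn2, one of the genes that lead this cluster, at 220 CPM against 51.7 CPM.

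Mesothelial-like cells also had clear Saa3, most of it from few cells. Their level was 212 CPM (185 to 242; 224 UMIs) in HFD labelled CD169-DTR, no UMI in the 29 cells of HFD labelled WT, 704 CPM (654 to 757; 731 UMIs) in ND labelled CD169-DTR and 88.1 CPM (74.6 to 103; 150 UMIs) in ND labelled WT. The normal diet log2 ratio of CD169-DTR to WT was 3.0 (2.74 to 3.26), 7.99-fold. On the high fat diet the level was at least 31.7-fold higher in the library labelled CD169-DTR, against the 3 UMI limit of 6.7 CPM in HFD labelled WT. Shares of mesothelial-like cells with an Saa3 UMI after thinning were 22.0%, 0%, 30.1% and 7.69% in HFD labelled CD169-DTR, HFD labelled WT, ND labelled CD169-DTR and ND labelled WT, against unthinned shares of 39.2%, 0%, 45.2% and 19.7%. In ND labelled WT these few cells held 54.5% of the library's Saa3 UMIs, more than its fibroblast-like cells held.

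A small class with adipocyte transcripts (Adipoq, Plin1, Cidec and others) had high Saa3 levels on the normal diet from very few cells. Its level was 569 CPM (405 to 778; 39 UMIs in 30 cells) in ND labelled CD169-DTR and 345 CPM (243 to 476; 37 UMIs in 69 cells) in ND labelled WT, above the fibroblast-like level of the same library in both. Only 6 cells in ND labelled CD169-DTR and 4 in ND labelled WT had a UMI, and 1 cell held 28 of the 37 UMIs in ND labelled WT. On the high fat diet the class had 2 cells in the library labelled CD169-DTR and 5 in that labelled WT, too few for a level.

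Macrophage-like, monocyte-like, endothelial-like and neutrophil-like cells had little Saa3, at most 23.2 CPM in any library. Macrophage-like cells had 23.2 CPM (131 UMIs) in HFD labelled CD169-DTR, 0.168 CPM (1 UMI) in HFD labelled WT, 18.1 CPM (69 UMIs) in ND labelled CD169-DTR and 1.88 CPM (2 UMIs) in ND labelled WT. In HFD labelled CD169-DTR, 3 macrophage-like cells held 37, 36 and 29 of the UMIs and had 4, 4 and 3 of the 7 fibroblast markers, and the rest stood at 5.22 CPM. In ND labelled CD169-DTR, 3 cells held 24, 10 and 9 of the UMIs and had 0, 2 and 4 of the 7 fibroblast markers, and the rest stood at 6.89 CPM. The first of these had 5 of the 7 macrophage markers. The summed level of the 7 fibroblast markers in macrophage-like cells was 300, 126, 96.1 and 73.1 CPM in HFD labelled CD169-DTR, HFD labelled WT, ND labelled CD169-DTR and ND labelled WT, and its part in these Saa3 levels was not tested. Neutrophil-like cells had 2 Saa3 UMIs in all.

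Saa1 and Saa2 were rare, and most of their UMIs lay in fibroblast-like cells, which held 100%, 96.4%, 74.3% and 86.0% of a library's Saa1 UMIs in HFD labelled CD169-DTR, HFD labelled WT, ND labelled CD169-DTR and ND labelled WT. Saa1 had 21 UMIs (0.516 CPM) in fibroblast-like cells of HFD labelled CD169-DTR, 27 (1.34 CPM) in HFD labelled WT, 130 (8.91 CPM) in ND labelled CD169-DTR and 37 (3.6 CPM) in ND labelled WT. Saa2 had 8 UMIs (0.197 CPM), 12 (0.595 CPM), 103 (7.06 CPM) and 3 (0.292 CPM) in the same order. Both were highest in ND labelled CD169-DTR. A single cell there held 57 of the 103 Saa2 UMIs, so that level rests largely on 1 cell. The normal diet log2 ratio of CD169-DTR to WT was 1.31 (0.77 to 1.88) for Saa1 and 4.6 (3.01 to 6.9) for Saa2. On the high fat diet it was -1.38 (-2.27 to -0.5) for Saa1 and -1.6 (-3.09 to -0.19) for Saa2, from 48 and 20 UMIs, under the minimum of 50 UMIs set for a measured ratio. Neither gene had a UMI in mesothelial-like, macrophage-like or neutrophil-like cells.

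Between labels, Lcn2 had the direction of Saa3 in fibroblast-like cells on both diets, with smaller ratios. Its level was 24.5 CPM (23 to 26.1; 998 UMIs) in HFD labelled CD169-DTR, 8.04 CPM (6.85 to 9.38; 162 UMIs) in HFD labelled WT, 164 CPM (158 to 171; 2394 UMIs) in ND labelled CD169-DTR and 18.3 CPM (15.8 to 21.1; 188 UMIs) in ND labelled WT. ND labelled CD169-DTR stood well above the other 3 libraries, and HFD labelled WT was lowest. The log2 ratio of CD169-DTR to WT was 1.61 (1.37 to 1.86) on the high fat diet, 3.05-fold, and 3.16 (2.95 to 3.39) on the normal diet, 8.97-fold. Between diets the level was 6.69-fold lower on the high fat diet in the mice labelled CD169-DTR and 2.28-fold lower in those labelled WT, log2 ratios of -2.74 (-2.85 to -2.63) and -1.19 (-1.5 to -0.88). After thinning, Lcn2 was found in 2.45%, 1.07%, 15.7% and 2.57% of fibroblast-like cells in HFD labelled CD169-DTR, HFD labelled WT, ND labelled CD169-DTR and ND labelled WT, and unthinned in 7.67%, 4.5%, 31.1% and 8.1%. These shares were above those of Saa3 in every library but HFD labelled CD169-DTR. The unthinned lymphocyte-like shares were 0.217%, 0.107%, 0.913% and 0.511%.

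Lcn2 is best known from neutrophils, and neutrophil-like cells had the highest level of any class with at least 20 cells, in every library. It was 2110 CPM (1760 to 2510; 125 UMIs) in the 64 cells of HFD labelled CD169-DTR, 914 CPM (669 to 1220; 46 UMIs) in the 36 cells of HFD labelled WT, 1030 CPM (907 to 1160; 265 UMIs) in the 85 cells of ND labelled CD169-DTR and 775 CPM (587 to 1000; 57 UMIs) in the 51 cells of ND labelled WT. The interval of the normal diet log2 ratio of CD169-DTR to WT, 0.41 (-0.01 to 0.85), included 0. Because neutrophil-like cells were few and shallow, they held 9.43%, 12.8%, 8.14% and 10.3% of a library's Lcn2 UMIs, while fibroblast-like cells held 75.3%, 45.3%, 73.5% and 33.9%. The summed level of the 8 neutrophil markers in fibroblast-like cells was 30.7 CPM in HFD labelled CD169-DTR, 1.59 CPM in HFD labelled WT, 30.4 CPM in ND labelled CD169-DTR and 3.11 CPM in ND labelled WT, with Ly6g at 0 in all 4. These markers moved with the label as Lcn2 did, and their part in the fibroblast-like Lcn2 level was not tested.

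Mesothelial-like cells also carried Lcn2, with an order of libraries unlike that in fibroblast-like cells. The level was 60.7 CPM (64 UMIs) in HFD labelled CD169-DTR, 277 CPM (124 UMIs) in the 29 cells of HFD labelled WT, 369 CPM (383 UMIs) in ND labelled CD169-DTR and 144 CPM (245 UMIs) in ND labelled WT. Lcn2 was found in 33.3%, 79.3%, 87.7% and 60.6% of these cells unthinned, and in 16.0%, 41.4%, 50.7% and 26.9% after thinning. The normal diet log2 ratio of CD169-DTR to WT was 1.36 (1.12 to 1.6). Both members measured in mesothelial-like cells on the normal diet, Saa3 and Lcn2, were over 2-fold higher in ND labelled CD169-DTR than in ND labelled WT, where 2.79% of 6068 genes were past 2-fold higher and 1.62% past 2-fold lower. Their median was 2.18, beside 0.02 over all genes. Of 9 other acute phase genes measured there, 3 were past 2-fold higher, none lower and 6 between. Their median was 0.6, beside 0.02 over all genes. Those with large ratios included Cp, the copper carrier ceruloplasmin (64.5 CPM against 9.99 CPM), and the protease inhibitor Serpina3n (65.5 CPM against 11.7 CPM).

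Hp transcripts were found in fibroblast-like cells, myeloid cells and the adipocyte-transcript class. In fibroblast-like cells the level was 343 CPM (338 to 349; 13966 UMIs) in HFD labelled CD169-DTR, 411 CPM (402 to 420; 8288 UMIs) in HFD labelled WT, 1340 CPM (1320 to 1360; 19602 UMIs) in ND labelled CD169-DTR and 1090 CPM (1070 to 1110; 11196 UMIs) in ND labelled WT. The diets stood further apart than the labels. Hp was 3.91-fold lower on the high fat diet than on the normal diet in the mice labelled CD169-DTR and 2.65-fold lower in those labelled WT, log2 ratios of -1.97 (-2.0 to -1.94) and -1.41 (-1.45 to -1.36). The log2 ratio of CD169-DTR to WT was -0.26 (-0.3 to -0.22) on the high fat diet and 0.3 (0.27 to 0.34) on the normal diet, less than 2-fold either way. In the committed preadipocyte subset the high fat diet ratio was 0.02. The summed level of the 7 adipocyte transcripts in fibroblast-like cells also differed by diet, at 24.2 CPM in HFD labelled CD169-DTR, 10.9 CPM in HFD labelled WT, 142 CPM in ND labelled CD169-DTR and 186 CPM in ND labelled WT, with only Lep at 0, in HFD labelled CD169-DTR. Its part in the Hp levels was not tested. After thinning, 18.2%, 21.8%, 50.2% and 43.2% of fibroblast-like cells had an Hp UMI in HFD labelled CD169-DTR, HFD labelled WT, ND labelled CD169-DTR and ND labelled WT, against 1.89%, 0.495%, 2.27% and 1.31% of lymphocyte-like cells. The unthinned fibroblast-like shares were 36.9%, 41.5%, 71.5% and 61.7%.

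Outside the fibroblast-like class, Hp in neutrophil-like cells was 3090 CPM (183 UMIs) in HFD labelled CD169-DTR, 1850 CPM (93 UMIs) in HFD labelled WT, 1120 CPM (288 UMIs) in ND labelled CD169-DTR and 2070 CPM (152 UMIs) in ND labelled WT. The lowest library was ND labelled CD169-DTR, where the 7 macrophage markers summed to 2330 CPM in neutrophil-like cells, against 204 to 709 CPM in the other 3; their part in this level was not tested. Monocyte-like cells had 416 CPM (642 UMIs) in HFD labelled CD169-DTR, 98.4 CPM (34 UMIs in 42 cells) in HFD labelled WT, 397 CPM (684 UMIs) in ND labelled CD169-DTR and 217 CPM (34 UMIs in 24 cells) in ND labelled WT. The WT values rest on few monocyte-like cells, and Ly6C-high monocytes had been largely sorted out. The class with adipocyte transcripts had 5690 CPM (390 UMIs in 30 cells) in ND labelled CD169-DTR and 1600 CPM (171 UMIs in 69 cells) in ND labelled WT. In ND labelled CD169-DTR 3 cells held 112, 62 and 51 of the 390 UMIs. The 10 highest cells held 89.5% of the UMIs there and 49.7% in ND labelled WT.

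Macrophage-like cells had low Hp levels that differed by label. The level was 61.7 CPM (55.4 to 68.5; 348 UMIs) in HFD labelled CD169-DTR, 8.06 CPM (5.94 to 10.7; 48 UMIs) in HFD labelled WT, 60.8 CPM (53.2 to 69.1; 232 UMIs) in ND labelled CD169-DTR and 15 CPM (8.58 to 24.4; 16 UMIs) in ND labelled WT. The libraries labelled CD169-DTR were 7.65-fold higher on the high fat diet and 4.05-fold higher on the normal diet, log2 ratios of 2.94 (2.5 to 3.4) and 2.02 (1.29 to 2.85). In this class 796 of 9067 genes were past 2-fold higher on the high fat diet and 957 of 7353 on the normal diet. After thinning, 15%, 3.1%, 13.7% and 3.41% of macrophage-like cells had an Hp UMI in HFD labelled CD169-DTR, HFD labelled WT, ND labelled CD169-DTR and ND labelled WT, and unthinned 28.4%, 7.34%, 36.5% and 10.1%. With classes taken from clusters instead of gates, the normal diet log2 ratio was -0.29, so its direction depends on which cells are called macrophages. In capillary-type endothelial-like cells, Hp was 290 CPM (392 UMIs) in ND labelled CD169-DTR and 124 CPM (408 UMIs) in ND labelled WT. Over all endothelial-like cells, the 10 highest held 41.3% of the Hp UMIs in ND labelled CD169-DTR and 20.2% in ND labelled WT. The 7 adipocyte transcripts summed to 1310 and 2040 CPM there in the same order. Their part in these Hp levels was not tested.

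Ptx3 was found almost wholly in fibroblast-like cells, which held 98.5%, 97.6%, 97.5% and 98.1% of a library's Ptx3 UMIs in HFD labelled CD169-DTR, HFD labelled WT, ND labelled CD169-DTR and ND labelled WT. Its level in them was 542 CPM (535 to 549; 22053 UMIs) in HFD labelled CD169-DTR, 681 CPM (670 to 693; 13729 UMIs) in HFD labelled WT, 2110 CPM (2090 to 2130; 30789 UMIs) in ND labelled CD169-DTR and 1530 CPM (1510 to 1560; 15763 UMIs) in ND labelled WT. As for Hp, both normal diet libraries stood above both high fat diet libraries. Ptx3 was 3.89-fold lower on the high fat diet than on the normal diet in the mice labelled CD169-DTR and 2.25-fold lower in those labelled WT. The log2 ratio of CD169-DTR to WT was -0.33 (-0.36 to -0.3) on the high fat diet and 0.46 (0.43 to 0.49) on the normal diet. Ptx3 was spread broadly: 35.7%, 33.7%, 74.0% and 53.5% of fibroblast-like cells had a UMI after thinning and 59.2%, 47.8%, 88.2% and 61.8% unthinned, against thinned lymphocyte-like shares of 0.755%, 1.86%, 3.73% and 1.31%.

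**Figure D4:**
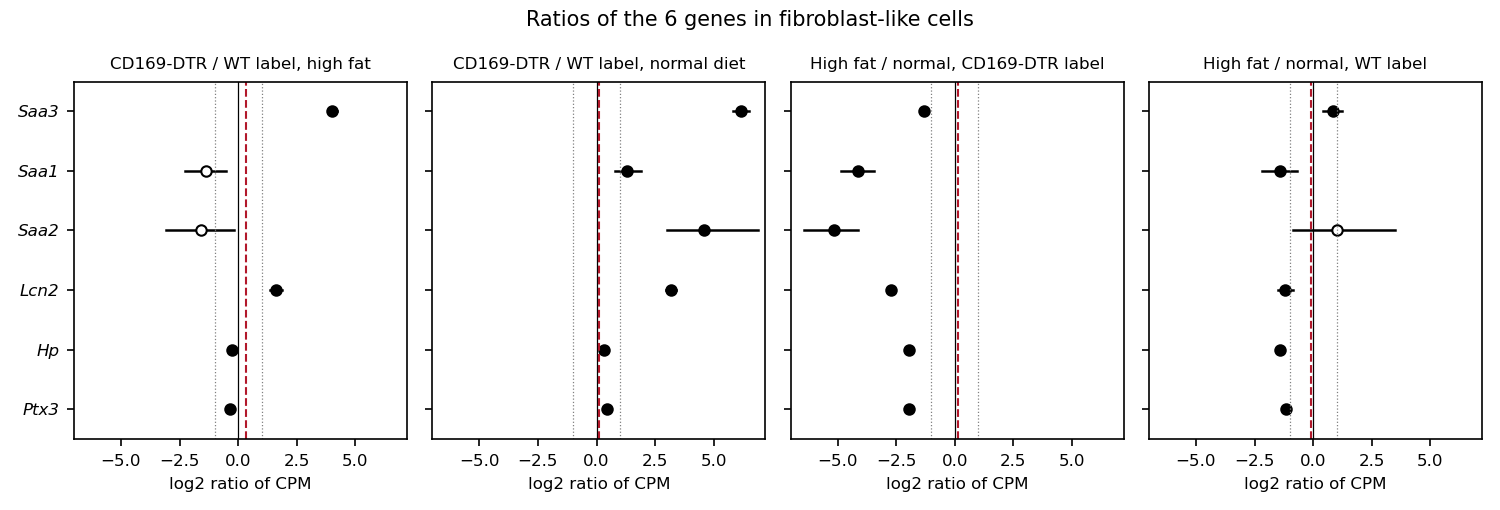
Log2 ratio of each member in fibroblast-like cells in 4 comparisons, CD169-DTR over WT on each diet and HFD over ND within each label, with 95% counting intervals; open points rest on under 50 UMIs, dashed lines mark the median of all genes and dotted lines 2-fold. Saa3 and Lcn2 lie above 2-fold in both label comparisons, at 4.01 and 1.61 on the high fat diet and 6.15 and 3.16 on the normal diet, and all 6 members lie below -1 between diets in the mice labelled CD169-DTR.

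Set side by side, Saa3 and Lcn2 were past 2-fold between labels on both diets, and Hp and Ptx3 between diets but not between labels. The 4 comparisons share libraries in pairs, so they are not independent of each other. In CD169-DTR over WT on the high fat diet, 2 of the 4 members measured (Saa3 and Lcn2) were past 2-fold higher and none past 2-fold lower, where 17.8% of 12595 genes were higher and 3.68% lower. The median of the 4 was 0.67, beside 0.34 over all genes. On the normal diet, 4 of 6 (Saa3, Saa2, Lcn2 and Saa1) were past 2-fold higher and none lower, where 6.71% of 11081 genes were higher and 3.01% lower, with a median of 2.24 beside 0.11. Saa1 and Saa2 count as separate members here and below, although how counts divide between them is uncertain. Both rest on few cells. In ND labelled CD169-DTR 1 cell held 57 of the 103 Saa2 UMIs, and the 10 highest held 84 of the 130 Saa1 UMIs. Between diets in the mice labelled CD169-DTR, 6 of 6 were past 2-fold lower on the high fat diet, where 4.58% of 12568 genes were lower and 9.5% higher, with a median of -2.35 beside 0.14. With a stricter cell filter (a minimum of 500 genes and a maximum of 5% mitochondrial UMIs) the Saa3 log2 ratio there was -0.89, under 2-fold. In the mice labelled WT, 4 of the 5 measured (Lcn2, Hp, Ptx3 and Saa1) were past 2-fold lower on the high fat diet, where 4.11% of 11128 genes were lower and 2.83% higher, with a median of -1.19 beside -0.08. The Saa1 value there rests on few cells, since the 10 highest held 18 of 27 UMIs in HFD labelled WT and 35 of 37 in ND labelled WT. Since the members were chosen with such values known, these counts are a description.

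Single fibroblast-like cells with Saa3 more often held Lcn2, Hp and Ptx3 than those without. Cells were thinned to 2000 UMIs, and median depths before thinning were close, 13473 UMIs in cells with Saa3 and 13084 in cells without in HFD labelled CD169-DTR, and 13109 and 12371 in ND labelled CD169-DTR. In HFD labelled CD169-DTR, Lcn2 was found in 17.5% (11.6 to 24.7) of 143 cells with Saa3 and in 1.64% (1.19 to 2.2) of 2627 cells without. In ND labelled CD169-DTR it was found in 46.0% (36.6 to 55.6) of 113 cells with Saa3 and in 12.1% (10.1 to 14.3) of 966 cells without. Hp was found in 62.2% of cells with Saa3 and 15.8% of cells without in HFD labelled CD169-DTR, and in 76.1% and 47.2% in ND labelled CD169-DTR. Ptx3 differed less, 62.2% and 34.2% in HFD labelled CD169-DTR and 85.8% and 72.6% in ND labelled CD169-DTR. For all 3 genes the cells with Saa3 had the higher share in both libraries. Saa1 was found in 2.1% and 0.0381% in HFD labelled CD169-DTR, from 3 cells and 1 cell, and in 4.42% and 0.725% in ND labelled CD169-DTR, from 5 and 7 cells. Saa2 was found in no thinned cell of HFD labelled CD169-DTR, and in 0.885% and 0.828% in ND labelled CD169-DTR, from 1 and 8 cells. The cells of 1 library are not replicates, and no test was made of these shares.

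**Figure D5:**
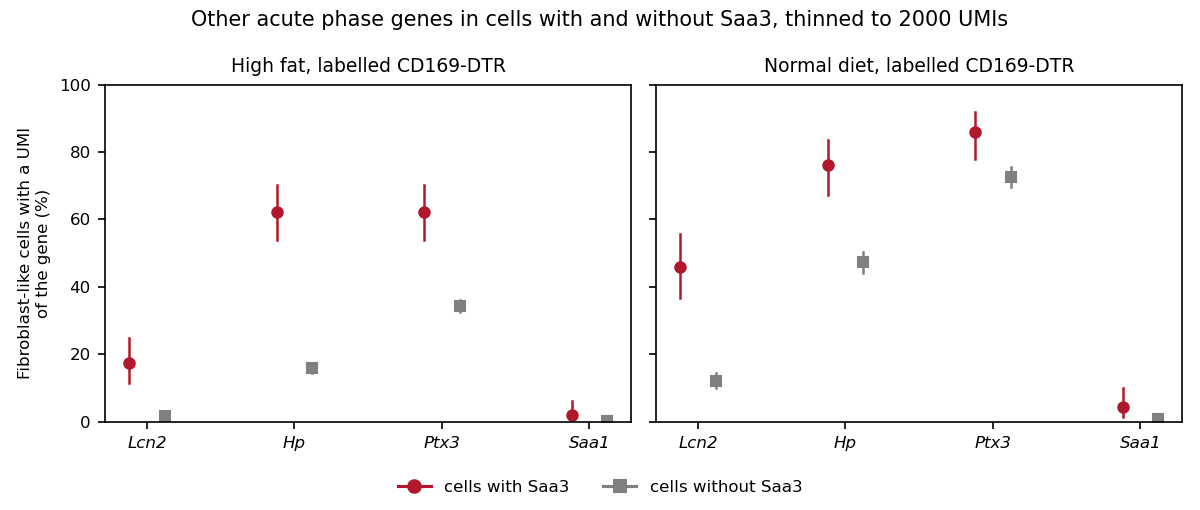
Percent of fibroblast-like cells with at least 1 UMI of Lcn2, Hp, Ptx3 or Saa1, in cells with and without an Saa3 UMI after thinning to 2000 UMIs, with 95% exact binomial intervals; HFD labelled CD169-DTR is on the left and ND labelled CD169-DTR on the right. Lcn2 stands at 17.5% against 1.64% on the left and 46.0% against 12.1% on the right.

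Beyond the members, levels from all UMIs of these same cells were set side by side. In HFD labelled CD169-DTR the neutrophil chemokine Cxcl5 was 1060 CPM in cells with Saa3 and 145 CPM in cells without, the mitochondrial superoxide dismutase Sod2 669 and 161 CPM, and the leucine-rich glycoprotein Lrg1 17.9 and 1.33 CPM. In ND labelled CD169-DTR Cxcl5 was 425 CPM in cells with Saa3 and 203 CPM in cells without, Sod2 821 and 407 CPM, and the IL-6 family cytokine Lif 132 and 38.8 CPM. All 6 early progenitor genes were lower in cells with Saa3, with log2 ratios of -0.79 to -2.03 in HFD labelled CD169-DTR and -0.99 to -2.47 in ND labelled CD169-DTR. Among them Pi16 was 73.5 CPM in cells with Saa3 and 159 CPM in cells without in HFD labelled CD169-DTR, and 48.8 and 210 CPM in ND labelled CD169-DTR. The 6 committed preadipocyte genes ranged in log2 ratio from -0.19 to 0.97 in HFD labelled CD169-DTR and from -0.17 to 1.65 in ND labelled CD169-DTR. Among them Fabp4, a fatty acid carrier, was 981 and 570 CPM in HFD labelled CD169-DTR and 2590 and 826 CPM in ND labelled CD169-DTR. All 7 proliferation genes were higher in cells with Saa3 in both libraries, among them Top2a with 63.8 and 22.3 CPM in HFD labelled CD169-DTR and 68.5 and 18.9 CPM in ND labelled CD169-DTR. The median log2 ratio over all genes measured was -0.06 and -0.07 in the same order of libraries.

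Among the cytokines that induce acute phase genes, fibroblast-like cells of the libraries labelled CD169-DTR were past 2-fold higher for several, but not for Il6. On the high fat diet 6 of 7 measured cytokines were past 2-fold higher and none lower, among them Tnf (log2 ratio 2.43), Il1a (2.29) and Il11 (81.9 CPM in HFD labelled CD169-DTR against 25.8 CPM in HFD labelled WT). On the normal diet 3 of 5 were past 2-fold higher and none lower, namely Il11 (85.4 CPM in ND labelled CD169-DTR against 10.6 CPM in ND labelled WT), Tnf (1.85) and Lif (1.77). Over all genes 17.8% were past 2-fold higher and 3.68% lower on the high fat diet, and 6.71% and 3.01% on the normal diet. Il6 itself was 312 CPM in HFD labelled CD169-DTR and 403 CPM in HFD labelled WT, and 950 CPM in ND labelled CD169-DTR and 686 CPM in ND labelled WT, under 2-fold either way. Between diets, Il6 was lower on the high fat diet in the mice labelled CD169-DTR, a log2 ratio of -1.61, as was Lif (-1.53). The list did not run with the members there, with 4 of 7 past 2-fold higher, 2 lower and a median of 1.27. Over all genes in that comparison 9.5% were higher and 4.58% lower, with a median of 0.14. The 7 macrophage markers summed to 54.9, 34.8, 21.5 and 21.2 CPM in fibroblast-like cells of HFD labelled CD169-DTR, HFD labelled WT, ND labelled CD169-DTR and ND labelled WT, and with the neutrophil markers given above they moved with Tnf, Il1a and Il1b (1.34) on the high fat diet; their part in these levels was not tested.

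Of receptors and signalling genes, about the share seen over all genes (17.8% on the high fat diet and 6.71% on the normal diet) was past 2-fold higher in CD169-DTR over WT. The share of all genes past 2-fold lower was 3.68% on the high fat diet and 3.01% on the normal diet. Of 12 cytokine receptors, 2 were past 2-fold higher and 1 lower in CD169-DTR over WT on the high fat diet, and 1 higher and none lower on the normal diet. Tlr2, a receptor for bacterial lipoproteins, was past 2-fold higher on both diets, with a log2 ratio of 1.23 in each. Of 16 signalling and transcription genes, 3 were higher and 2 lower on the high fat diet, and 1 higher and none lower on the normal diet. The noncanonical NF-kB subunit gene Nfkb2 was past 2-fold higher on both, 1.62 on the high fat diet and 1.01 on the normal diet. Cebpd, a C/EBP factor of the acute phase response, was lower, 822 CPM in HFD labelled CD169-DTR against 1890 CPM in HFD labelled WT and 1520 CPM in ND labelled CD169-DTR against 2750 CPM in ND labelled WT. Socs3, a feedback inhibitor that STAT3 induces, was 669 CPM in HFD labelled CD169-DTR and 1580 CPM in HFD labelled WT.

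Other acute phase genes did not all follow Saa3. On the high fat diet 3 of 14 measured were past 2-fold higher in HFD labelled CD169-DTR and 5 lower, with a list median of -0.79 beside 0.34 over all genes. Over all genes 17.8% were higher and 3.68% lower, so the count higher was near the share over all genes. The protease inhibitor Serpina3g was 104 CPM in HFD labelled CD169-DTR and 12.7 CPM in HFD labelled WT, whereas the lipopolysaccharide binding protein gene Lbp was 138 and 460 CPM and Cp 111 and 312 CPM in the same libraries. On the normal diet 4 of 12 were higher and none lower, with a median of 0.35 beside 0.11. There 6.71% of all genes were higher and 3.01% lower. Serpina3g was 71.9 CPM in ND labelled CD169-DTR and 14.3 CPM in ND labelled WT, Serpina3n 415 and 200 CPM, and complement C3, under 2-fold, 7070 and 4140 CPM. Between diets in the mice labelled CD169-DTR, 8 of 14 were past 2-fold lower on the high fat diet and 1 higher, where 4.58% of all genes were lower and 9.5% higher. C3 was 2150 CPM in HFD labelled CD169-DTR against 7070 CPM in ND labelled CD169-DTR. In the mice labelled WT 2 of 13 were lower and 2 higher, where 4.11% of all genes were lower and 2.83% higher.

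Of the fibroblast genes known to respond to IL-1 and IL-6 type cytokines, 5 of 16 were past 2-fold higher and 1 lower in HFD labelled CD169-DTR against HFD labelled WT, and 6 higher and none lower in ND labelled CD169-DTR against ND labelled WT. Over all genes 17.8% were past 2-fold higher and 3.68% lower on the high fat diet, and 6.71% and 3.01% on the normal diet. Cxcl5 had the largest ratio of this list on both diets, 194 CPM in HFD labelled CD169-DTR against 9.28 CPM in HFD labelled WT and 227 CPM in ND labelled CD169-DTR against 9.05 CPM in ND labelled WT. Timp1, an inhibitor of matrix proteases, was 1280 CPM in ND labelled CD169-DTR and 238 CPM in ND labelled WT. Among partners and receptors of the acute phase proteins, 7 of 16 were higher and 2 lower on the high fat diet and 3 of 12 higher and none lower on the normal diet. The same shares over all genes apply to this list. Mmp9, a protease that lipocalin 2 binds, had log2 ratios of 6.5 and 3.01; it is also one of the 8 neutrophil markers. The matrix receptor Cd44 had 1.46 on the normal diet.

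Across 47 combinations of class and library, the gene whose log level ran most like Saa3 was C1rl (Pearson r = 0.846), followed by Pdzrn3 (0.839), Phlda3 (0.832), Fam110c (0.828) and Flnc (0.823), out of 12648 genes. For Lcn2 the first were Chil1 (0.851), Sgms2 (0.848) and Grina (0.832), for Hp G0s2 (0.846), Thbs1 (0.793) and Ampd3 (0.778), and for Ptx3 Tnfaip6 (0.88), Enpep (0.872) and Akr1cl (0.87). Between members the correlation was 0.656 for Lcn2 and Hp, 0.649 for Hp and Ptx3, 0.531 for Saa3 and Ptx3, 0.51 for Saa3 and Lcn2, 0.392 for Lcn2 and Ptx3 and 0.32 for Saa3 and Hp. Saa1 had 0.786 with Ptx3, 0.46 with Hp, 0.368 with Saa3 and 0.272 with Lcn2. The points share libraries and differ in depth and cell number, so these values describe likeness only and carry no p.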

How the data were processed

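The labels list 32 sample records. Records of 1 source name differ only in index and lane, so the 8 records of each were taken as runs of 1 library, which gave 4 libraries and 1 per group. Cell Ranger 3.1.0 and the mm10 build are named in the submitters' processing notes. The authors deposited 1 matrix of raw UMI counts, and barcode suffixes were read as row numbers of their aggregation list. The sources used here do not say whether depth was equalized across libraries.

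A cell needed 300 genes and no more than 10% mitochondrial UMIs. Scrublet (scanpy 1.11.5), run on each library with an expected rate of 5.4%, marked 0.69% to 1.37% of cells as doublets, which were removed. Each cell was assigned to the class of 21 with the largest share of its markers detected, if that share was at least 40% and led other lineages by 20 points, and 15.5% of cells stayed ungated. UMIs of each class were summed within a library and scaled to the class total (CPM). Levels carry exact Poisson intervals, shares exact Clopper-Pearson intervals and log2 ratios conditional exact binomial intervals, all at 95% (scipy 1.17.1, numpy 2.4.6, pandas 2.3.3). A ratio counted as measured with 50 UMIs over both libraries and 50 cells in each, and as higher or lower past 2-fold. For 0 UMIs the limit is 3 UMIs per library. Shares of cells were computed after thinning each cell to 2000 UMIs, leaving out shallower cells, and unthinned. Clusters (leidenalg 0.10.2, resolution 1.5) were made without the member genes and used only where named. Genes named from a list are among its 8 largest ratios in a comparison. Scripts were tested on simulated data. Promoter windows came from RefSeq, where 5 of the 6 members matched (Hp was not matched).

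Cell filters, doublets, weighting, centring, class assignment, background subtraction, left-out top cells, thinning depth and the UMI minimum were varied. The members, lists, tests and alternatives were chosen with earlier results of these data known.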

Additional observations from a re-analysis of the deposited data

Results flagged for a closer look

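For 6 pairs of values the log2 ratio of CD169-DTR to WT had opposite signs on the 2 diets, and both intervals excluded 0. With 1 library per group the difference between the diets was not tested. In fibroblast-like cells Hp had -0.26 on the high fat diet and 0.3 on the normal diet, and Ptx3 had -0.33 and 0.46. These 4 ratios were all under 2-fold, and the median ratio of all genes was 0.34 on the high fat diet and 0.11 on the normal diet. Saa1 had -1.38 on the high fat diet and 1.31 on the normal diet, and Saa2 had -1.6 and 4.6, both from few UMIs. In mesothelial-like cells Lcn2 had -2.19 on the high fat diet, where WT had 29 cells, and 1.36 on the normal diet. In neutrophil-like cells Hp had 0.74 on the high fat diet, where WT had 36 cells, and -0.89 on the normal diet.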

How the results depend on the processing

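Of 311 alternative values of 33 log2 ratios, 230 stayed within the counting interval of the main value, 75 moved beyond it and 6 changed sign. In fibroblast-like cells the Saa3 ratio of CD169-DTR to WT on the normal diet was 4.48 with every cell weighted equally, 9.06 without the 10 highest cells and 7.42 in the committed preadipocyte subset. On the high fat diet it was 3.68 when centred on the median of all genes, 9.14 without the 10 highest cells and 4.26 in that subset. The Lcn2 ratio on the normal diet was 2.88 with the stricter cell filter and 3.46 without the 10 highest cells, and on the high fat diet 1.27 when centred. The sign changed for Hp in fibroblast-like cells on the high fat diet (0.02 in the committed preadipocyte subset), for Saa1 (1.19 without the 10 highest cells) and Saa3 (-0.98 with equal weights and -1.3 without the 10 highest cells) between diets in WT, and for Hp on the normal diet in macrophage-like cells (-0.29 with classes from clusters) and neutrophil-like cells (0.05 with equal weights). Values without the 10 highest cells rest on few UMIs in WT, where these cells held 240 of 244 Saa3 UMIs on the high fat diet and 65 of 70 on the normal diet, so the larger Saa3 ratios follow from that setting's construction. The cause of the other changes was not tested. Of 32 ratios without the shared barcodes, 27 stayed within it, 5 moved and none changed sign. That removal and the committed preadipocyte subset were chosen after seeing the data. No paired analysis was possible because each group had 1 library, and no library could be left out for the same reason.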
